A study of Arabidopsis thaliana with 12 samples.

Results

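SAUR (small auxin up RNA) genes were examined in seedlings of Arabidopsis thaliana: 45 loci of the family, taken by gene identifier, among 33010 genes in the expression table. The list was made with earlier results of these data known. Of the 45, 31 lie in tandem blocks, with 8 on chromosome 1 (SAUR61 to SAUR68), 3 on chromosome 2 (SAUR6, SAUR7 and SAUR12), 4 on chromosome 3 (SAUR26 to SAUR29), 6 on chromosome 4 around SAUR1, 4 on chromosome 4 around SAUR14 and 6 on chromosome 5 (SAUR19 to SAUR24). The other 14 lie outside these blocks and are called dispersed here. Some of them lie near a SAUR locus that is not among the 45, such as SAUR70 beside SAUR76. Another 34 loci of the table carry a SAUR name and are described separately.

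RNA was sequenced from shoots and from roots of 8-day-old seedlings kept at 22 °C in constant white fluorescent light of 15 µE. Plants overexpressing CCA1 (CCA1-ox), a MYB protein that works at the core of the circadian clock, were set against wild-type Col-0 (WT), so the groups were CCA1-ox shoots, WT shoots, CCA1-ox roots and WT roots, with 3 libraries each. The sources used here give neither the promoter that drives CCA1, nor the number of transgenic lines, nor the hour of harvest. They name no separate cultures, so p-values reflect the spread between libraries, and that spread may be technical.

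SAUR genes were first found as transcripts that accumulate within minutes of auxin treatment. The small proteins they encode bind and inhibit clade D phosphatases of the PP2C family, which otherwise remove an activating phosphate from the H+-ATPases of the plasma membrane. With the pumps active, protons leave the cell, the wall loosens and the cell expands. Phytochrome-interacting factors (PIFs), brassinosteroid-responsive factors and auxin response factors are known to bind and regulate SAUR promoters, and members of the family differ in the organ where they are expressed.

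The stretches before the gene starts are shown for the member of each tandem block with the largest change in CCA1-ox shoots, among windows that hold no other annotated gene, and for SAUR14, the most abundant SAUR transcript of shoots. Each is the 250 bases upstream of the annotated start, 5′ to 3′ on the gene's own strand, read from the RefSeq genome TAIR10.1, where all 45 genes have the same coordinates as in the deposited TAIR10 table. Capitals mark matches, on either strand, to any of 6 motifs. These were TGTCTC, the classical auxin response element, its variant with the letters TGTCGG, the G-box or CACGTG, an E-box known to bind PIFs that reads CACATG, the core of the evening element with the letters AAATATCT, and a CCA1-binding site spelled AAAAATCT. Where the E-box lies on the opposite strand it is printed as CATGTG.
SAUR22 (chr5:5975088-5975337, minus strand): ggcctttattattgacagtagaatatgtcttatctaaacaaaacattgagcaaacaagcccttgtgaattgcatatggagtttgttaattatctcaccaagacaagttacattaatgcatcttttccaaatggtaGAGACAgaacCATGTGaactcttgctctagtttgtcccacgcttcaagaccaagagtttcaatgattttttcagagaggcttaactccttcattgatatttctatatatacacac
SAUR65 (chr1:10308247-10308496, minus strand): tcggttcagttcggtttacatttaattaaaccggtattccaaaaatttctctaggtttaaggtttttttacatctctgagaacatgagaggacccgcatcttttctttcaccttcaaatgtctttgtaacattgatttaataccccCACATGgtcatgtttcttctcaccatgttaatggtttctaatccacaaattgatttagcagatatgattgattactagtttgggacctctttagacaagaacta
SAUR28 (chr3:980563-980812, minus strand): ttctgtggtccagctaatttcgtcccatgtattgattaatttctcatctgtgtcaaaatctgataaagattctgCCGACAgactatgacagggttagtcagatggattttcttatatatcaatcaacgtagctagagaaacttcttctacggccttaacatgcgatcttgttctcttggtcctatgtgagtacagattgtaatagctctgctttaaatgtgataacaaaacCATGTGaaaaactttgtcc
SAUR14 (chr4:18125560-18125809, minus strand): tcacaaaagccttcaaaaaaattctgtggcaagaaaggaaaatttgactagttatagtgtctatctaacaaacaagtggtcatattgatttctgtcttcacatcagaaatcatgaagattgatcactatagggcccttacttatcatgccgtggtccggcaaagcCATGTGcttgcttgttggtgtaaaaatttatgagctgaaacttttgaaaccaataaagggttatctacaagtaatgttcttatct
SAUR13 (chr4:18121276-18121525, plus strand): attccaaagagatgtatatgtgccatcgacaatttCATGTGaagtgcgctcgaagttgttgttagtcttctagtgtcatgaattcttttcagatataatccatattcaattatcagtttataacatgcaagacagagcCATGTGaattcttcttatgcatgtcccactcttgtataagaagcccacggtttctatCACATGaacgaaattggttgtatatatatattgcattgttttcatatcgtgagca
SAUR4 (chr4:16596390-16596639, plus strand): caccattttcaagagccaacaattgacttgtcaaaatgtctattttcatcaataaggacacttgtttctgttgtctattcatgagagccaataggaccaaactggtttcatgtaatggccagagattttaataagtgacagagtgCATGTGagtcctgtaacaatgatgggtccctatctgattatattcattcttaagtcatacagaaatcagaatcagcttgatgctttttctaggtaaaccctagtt
SAUR6 (chr2:9086030-9086279, minus strand): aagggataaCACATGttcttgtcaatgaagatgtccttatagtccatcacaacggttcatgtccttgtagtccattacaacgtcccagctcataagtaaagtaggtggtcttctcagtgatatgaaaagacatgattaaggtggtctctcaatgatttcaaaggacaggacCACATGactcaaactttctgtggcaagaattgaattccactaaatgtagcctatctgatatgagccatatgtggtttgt
All 7 windows hold CACATG, SAUR13 at 3 places and SAUR6 at 2. A match is a description of the letters, not of binding.

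Values are deposited FPKM (fragments per kilobase of gene, corrected for library depth). Recovered fragments per library numbered 37216665 to 39814773 for CCA1-ox shoots, 39683894 to 44242304 for WT shoots, 27142671 to 38537638 for CCA1-ox roots and 37773138 to 45051329 for WT roots. CCA1 itself (AT2G46830) read 212 to 216 FPKM in CCA1-ox shoots against 44.8 to 45.2 in WT shoots, and 172 to 179.6 in CCA1-ox roots against 16.2 to 17.9 in WT roots. Mesophyll markers summed to at most 22.1 FPKM in any root library and root hair markers to at most 0.136 FPKM in any shoot library, so these lists match the labelled organs. Fold changes were taken on log2(FPKM + 1), so those of faint genes are understated. A gene was called at an adjusted p under 0.05 by limma, with Benjamini-Hochberg adjustment over 20975 genes that reached 1 FPKM in at least 3 libraries. Of the 45 SAUR genes, 42 were tested. The other 3 were SAUR9 (AT4G36110), which peaked at 1.07 FPKM, SAUR68 (AT1G29490) at 0.968 and SAUR25 (AT4G13790) at 0.0537.

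Most of the 45 SAUR genes were transcripts of one organ. A mean of at least 1 FPKM was reached by 27 of the 45 in shoots alone, by 6 in roots alone and by 7 in both. Among genes tested, 34 of 42 SAUR genes and 18545 of all 20975 reached that mean in shoots. In roots 13 SAUR genes and 18929 of all genes tested did. In all 6 root libraries, 11 of the 45 had no fragment at all, and no member was without a fragment in all 6 shoot libraries. The blocks on chromosomes 1, 2, 3 and 5 and the block around SAUR14 were blocks of shoot transcripts. The chromosome 5 block summed to 0.0415 ± 0.0422 FPKM in CCA1-ox roots (SD, n = 3) and 88.6 ± 1.61 FPKM in CCA1-ox shoots, and to 0.0424 ± 0.0516 FPKM in WT roots and 31.3 ± 1.64 FPKM in WT shoots.

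**Figure D1:**
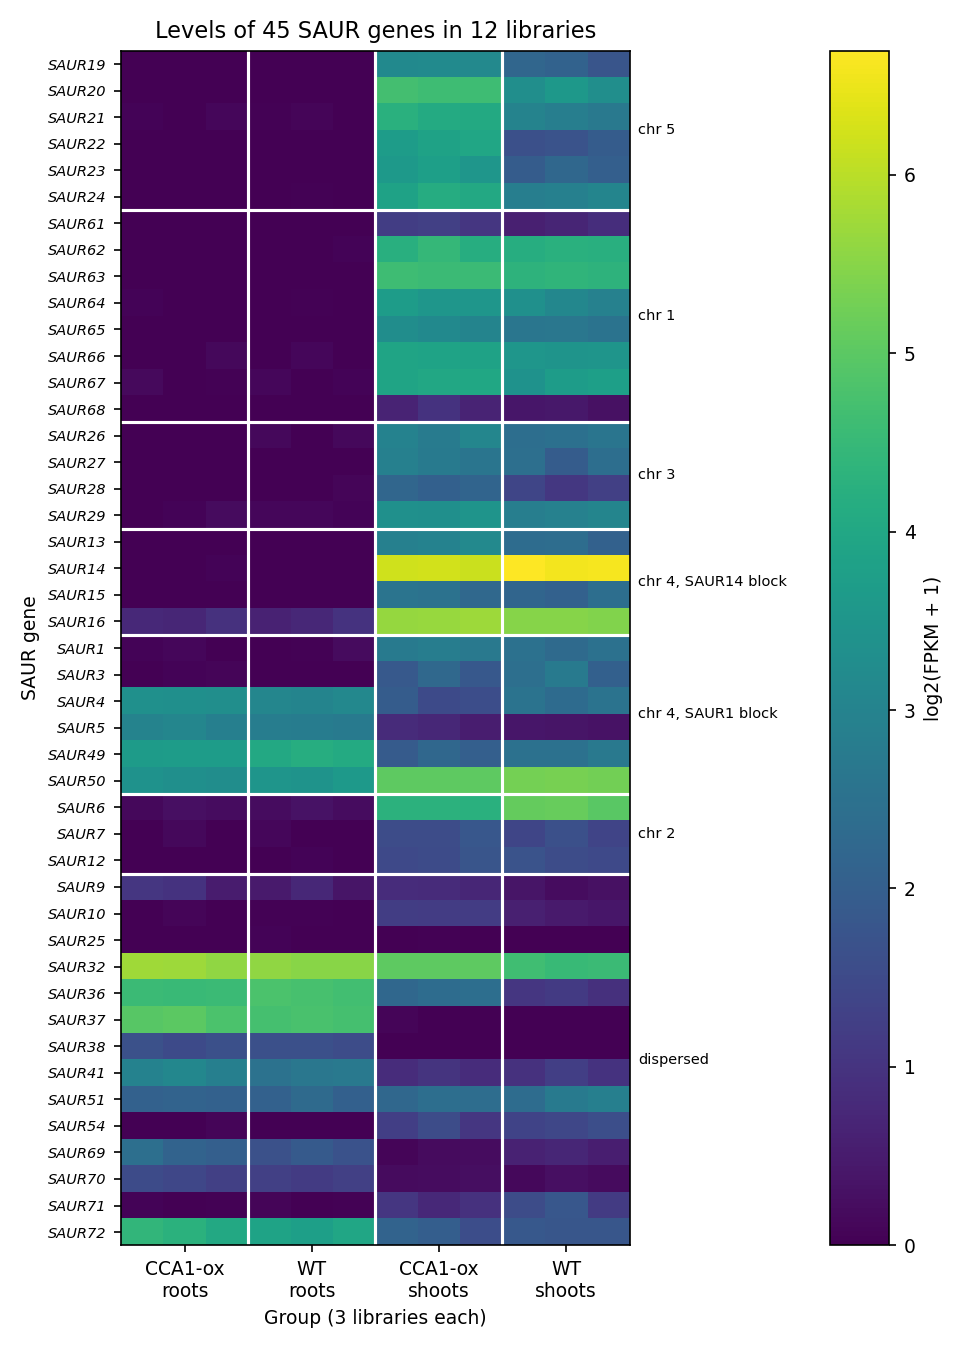
Levels of the 45 SAUR genes, as log2(FPKM + 1), in the 12 libraries (columns, 3 to a group) with genes in rows by block. The chromosome 1, 2, 3 and 5 blocks and the block around SAUR14 are dark in roots, while SAUR32, SAUR36 and SAUR37 are the brightest rows there.

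SAUR14 (AT4G38840, chromosome 4, 18124978 to 18125559), which light induces in cotyledons, was the most abundant member in shoots. It had 1 fragment among the 3 CCA1-ox root libraries against 73.3, 75.1 and 70.4 FPKM in CCA1-ox shoots, and no fragment in WT roots against 103, 94.4 and 96.8 FPKM in WT shoots. With the limit set at 3 fragments over the group, its level was at least 2765-fold lower in WT roots than in WT shoots. Next in WT shoots came SAUR16 (43.2 ± 1.17 FPKM), SAUR50 (38.5 ± 0.662), SAUR6 (32.7 ± 2.01) and SAUR32 (22.7 ± 1.03), each separated from its neighbour in that order with no overlap between libraries. In CCA1-ox shoots the order began with SAUR14 (73.0 ± 2.37), SAUR16 (49.9 ± 1.72), SAUR50 (31.8 ± 0.256) and SAUR32 (31.7 ± 0.216), and the libraries of SAUR50 and SAUR32 overlapped.

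Among the 45, roots had their own leading members. SAUR32 (AT2G46690, chromosome 2, 19180705 to 19181600), known for a role in the apical hook, was the highest of the 45 with 50.5 ± 3.02 FPKM in CCA1-ox roots and 45.2 ± 1.39 in WT roots, and was 1.99-fold higher in WT roots than in WT shoots (95% counting interval 1.90 to 2.09). SAUR37 (AT4G31320) read 25.5, 26.2 and 25.2 FPKM in WT roots and had no fragment in WT shoots, so it was at least 929-fold higher in WT roots. SAUR38 (AT2G24400), a fainter transcript at 2.05 ± 0.0939 FPKM in WT roots, likewise had no fragment in WT shoots, a difference of at least 131-fold. SAUR36 (AT2G45210), which promotes leaf senescence, was 24.2-fold higher in WT roots than in WT shoots (20.5 to 28.8). These intervals and limits cover counting error only.

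The block around SAUR1 on chromosome 4 was mixed. SAUR5 (AT4G34810) was 20.6-fold higher in WT roots than in WT shoots (13.2 to 34.1), SAUR49 (AT4G34750) 3.26-fold (3.01 to 3.54) and SAUR4 (AT4G34800) 1.61-fold (1.43 to 1.83). SAUR50 (AT4G34760), whose product promotes cotyledon opening in the light, was 3.72-fold lower in WT roots (3.50 to 3.96). SAUR3 (AT4G34790), their neighbour, had no fragment in WT roots against 392 in WT shoots. By limma, 11 of the 42 tested SAUR genes were higher and 31 lower in WT roots than in WT shoots, where 87.2% of all genes tested were called, 45.3% higher and 41.8% lower. In CCA1-ox plants 11 were higher and 30 lower in roots than in shoots, where 86.7% of all genes were called, 45.2% higher and 41.5% lower, and SAUR51 was not called (adjusted p = 0.0580). Most of the 42 reached 1 FPKM in libraries of 1 organ only, so the filter largely fixed the direction of their organ difference. Scaling to the summed fragments moved the median of all genes from 0.035 to 0.33 log2 in WT roots against WT shoots. SAUR51 then lost its call in WT (adjusted p = 0.0635), with no change to the other calls.

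In shoots, CCA1 overexpression went with higher levels of whole SAUR blocks and lower levels of a smaller set. Of the 42 members tested, 23 were higher, 9 lower and 10 not called in CCA1-ox shoots against WT shoots, or 76.2% called, where 55.5% of all genes tested were called, 26.6% higher and 28.9% lower. The median change was 0.27 log2 over the 42 members and −0.01 over all genes tested. SAUR10 and SAUR61 passed the filter through CCA1-ox shoots alone, which fixes the direction of their difference and keeps their libraries apart. Both are included in the median and in the counts of higher members given here. Libraries did not overlap for 23 members that were higher and 7 that were lower in CCA1-ox, shares to be read against 28.7% and 31.7% of all genes. Summed over the 45 genes, SAUR transcripts came to 457 ± 6.39 FPKM in CCA1-ox shoots and 401 ± 5.44 FPKM in WT shoots. Under 2 other scalings the members split into 25 higher and 7 lower (summed fragments) and 21 higher and 11 lower (quantile), while calls over all genes were 66.0% and 41.7% higher, against 48.0% as deposited.

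**Figure D2:**
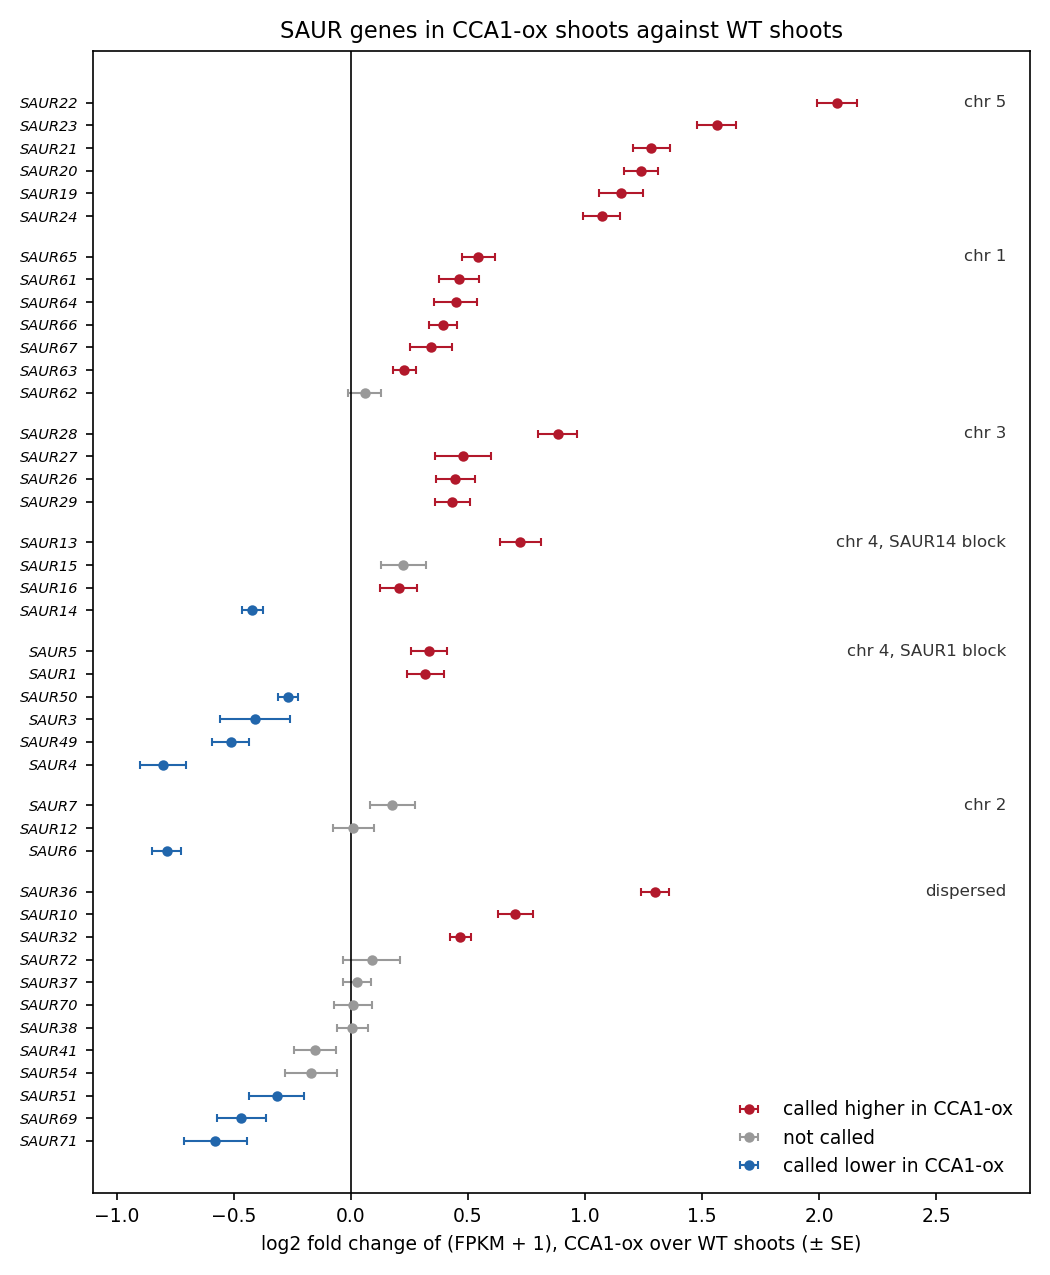
Log2 fold change of (FPKM + 1) with its standard error for the 42 SAUR genes tested, CCA1-ox shoots over WT shoots, grouped by block. All 6 genes of chromosome 5 lie between 1.07 and 2.08, the chromosome 1 and 3 blocks lie between 0.06 and 0.88, and the blocks of chromosomes 2 and 4 and the dispersed genes fall on both sides of 0.

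Markers of several cell types also differed between these shoots. The 6 xylem markers were all called higher (sums of 125 to 126 FPKM in CCA1-ox shoots against 69.3 to 70.6 in WT shoots), as were the 7 endodermis markers (45.1 to 51.2 against 20.97 to 23.0). Of 6 guard cell markers 2 were higher and 4 lower (117.7 to 117.8 FPKM against 163.6 to 163.8), and of 6 mesophyll markers 1 was higher, 4 lower and 1 not called (29511 to 30141 against 41833 to 42011). No marker of these 4 lists was at 0 in either shoot group. The 6 root hair markers stayed under 1 FPKM, with 3 at 0 in CCA1-ox shoots and 4 in WT shoots. The part of these differences in the SAUR values was not tested, and in whole organs a change in the share of a cell type and a change of RNA per cell cannot be told apart.

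The chromosome 5 block, whose members are known to drive cell expansion, was higher as a whole. SAUR22 (AT5G18050, 5974341 to 5975087) read 11.97, 13.4 and 14.5 FPKM in CCA1-ox shoots, against 2.09, 2.25 and 2.83 FPKM in WT shoots. Every CCA1-ox library stood above every WT library, with a log2 fold change of 2.08 (SE 0.09, adjusted p = 2.30e-10).

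SAUR23 (AT5G18060) read 11.0, 12.7 and 10.6 FPKM in CCA1-ox shoots, against 2.85, 3.73 and 3.04 in WT shoots (1.56). SAUR21 (AT5G18030) read 18.2, 16.1 and 15.9 FPKM in CCA1-ox shoots, against 6.96, 6.31 and 5.58 in WT shoots (1.28). SAUR20 (AT5G18020), the most abundant of the block, read 24.9, 23.3 and 23.4 FPKM in CCA1-ox shoots, against 8.86, 10.9 and 8.88 in WT shoots (1.24). These 3 genes showed the same separation of groups as SAUR22. SAUR19 (AT5G18010), whose product is the best studied inhibitor of clade D phosphatases in the family, read 8.00, 8.25 and 7.91 FPKM in CCA1-ox shoots, against 3.60, 3.29 and 2.40 in WT shoots (1.15). SAUR24 (AT5G18080) read 13.5, 16.8 and 15.6 FPKM in CCA1-ox shoots, against 6.27, 6.62 and 7.32 in WT shoots (1.07). All 6 were called, SAUR19 with the largest adjusted p (1.89e-07), and all 6 stayed called in every alternative analysis.

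**Figure D3:**
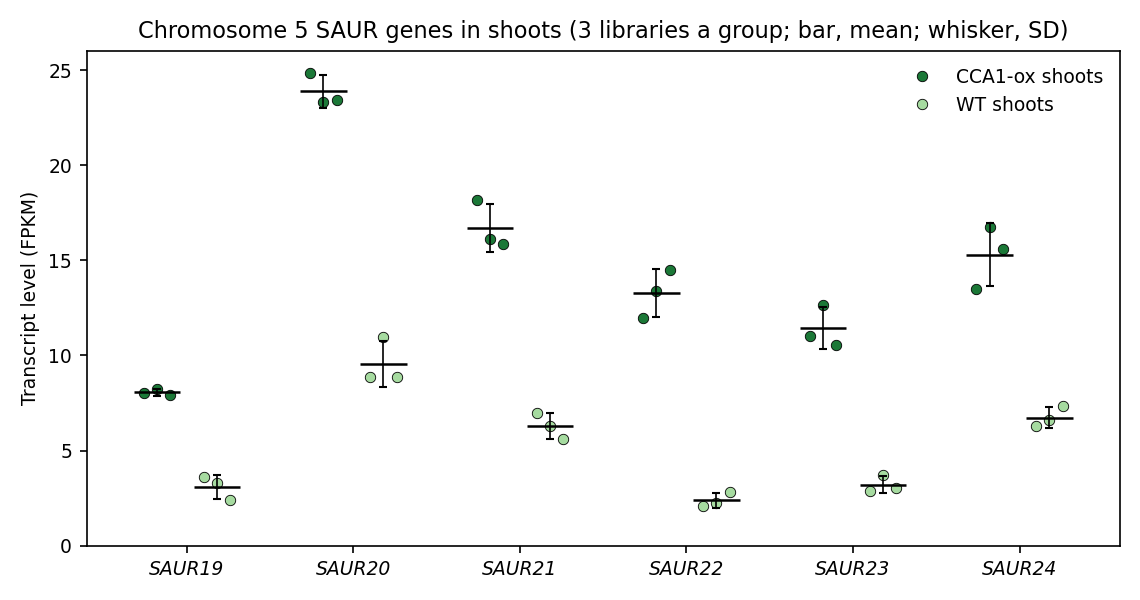
FPKM of the 6 chromosome 5 SAUR genes in each CCA1-ox shoot library and each WT shoot library (points), with the mean and SD of 3 libraries. In each gene all 3 CCA1-ox points lie above all 3 WT points, with SAUR22 at 11.97 to 14.5 against 2.09 to 2.83.

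The 6 genes resemble one another. Their coding sequences were 87.7% to 95.2% identical in pairs, and between 0.573% (SAUR22) and 18.5% (SAUR19) of the 50-base words of each gene recur in other genes, all of them members of the same block. Fragments that match several copies are uncertain, since the sources used here do not say how they were counted. The block spans 21536 bases on chromosome 5 and holds 8 other annotated genes. Of those, 3 were tested in shoots: AT5G18065 was higher (0.30), DRT101 (AT5G18070) lower (−0.21) and AT5G18040 not called (−0.14, adjusted p = 0.157).

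The chromosome 1 block, to which the growth-promoting SAUR63 belongs, was higher by smaller amounts. Of 7 genes tested 6 were higher and SAUR62 was not called, and the block summed to 90.7 ± 3.32 FPKM in CCA1-ox shoots and 72.6 ± 1.06 in WT shoots (n = 3 each). SAUR65 (AT1G29460, 10307352 to 10308246) read 8.76, 8.01 and 7.17 FPKM in CCA1-ox shoots, against 5.19, 5.34 and 4.90 in WT shoots (0.54, SE 0.07, adjusted p = 1.83e-05). SAUR61 (AT1G29420), a faint member, read 1.33, 1.42 and 1.07 FPKM in CCA1-ox shoots, against 0.500, 0.628 and 0.827 in WT shoots (0.46). SAUR64 (AT1G29450) read 11.98, 10.5 and 10.4 FPKM in CCA1-ox shoots, against 9.26, 7.50 and 6.71 in WT shoots (0.45). In each of these 3 genes the groups did not overlap, though for SAUR61 the filter fixed this. SAUR66 (0.39), SAUR67 (0.34) and SAUR63 (0.23) were also called, whereas SAUR62 (AT1G29430), which acts in pollen tubes, read 17.6, 20.8 and 17.0 FPKM against 17.0, 18.1 and 17.7. The gene called SAUR67 here is AT1G29510, which the deposited table names SAUR68, a name that RefSeq also gives to AT1G29490. Of their 50-base words, 27.1% in SAUR63, 25.1% in SAUR67 and 23.2% in SAUR62 recur in other genes, which for all 3 include neighbours in the block and, outside it, SAUR75 (AT5G27780). Unstranded counting could also mix SAUR63 with AT1G29435, whose annotated span, though not all of it counted, covers SAUR63 on the other strand. AT1G29435 averaged 0.145 FPKM in CCA1-ox shoots and 0.179 in WT shoots. With a pseudocount of 0.1 SAUR66 (adjusted p = 0.211) and SAUR67 (0.289) lost their calls, and with quantile normalization SAUR61 did (0.103).

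On chromosome 3, where SAUR26 to SAUR29 include genes tied to growth responses to temperature, all 4 were higher. SAUR28 (AT3G03830, 979976 to 980562) read 3.61, 3.13 and 3.50 FPKM in CCA1-ox shoots, against 1.66, 1.14 and 1.40 in WT shoots (0.88, SE 0.08, adjusted p = 1.01e-06). SAUR27 (AT3G03840) read 6.60, 5.71 and 5.03 FPKM in CCA1-ox shoots, against 4.46, 2.85 and 4.37 in WT shoots (0.48). SAUR26 (AT3G03850) read 6.80, 5.85 and 7.46 FPKM in CCA1-ox shoots, against 4.38, 4.50 and 5.04 in WT shoots (0.45). Neither these 3 nor SAUR29 (AT3G03820, 0.43) overlapped between groups. SAUR27 missed the threshold when only the 2 shoot groups were fitted (adjusted p = 0.0530). A pseudocount of 0.1 ended the calls of SAUR26 (0.0857) and SAUR29 (0.142).

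The block around SAUR14 on chromosome 4 moved both ways. SAUR13 (AT4G38825, 18121526 to 18122010) read 6.53, 6.81 and 7.84 FPKM in CCA1-ox shoots, against 4.13, 4.30 and 3.24 in WT shoots (0.72, SE 0.09, adjusted p = 1.05e-05). It overlaps AT4G38820 by 433 bases on the other strand, a gene at no more than 0.254 FPKM in any library. SAUR14, at the values given above, was lower in every CCA1-ox library (−0.42, SE 0.05, adjusted p = 3.74e-06). It made up 16.0% of the summed SAUR FPKM of CCA1-ox shoots and 24.4% of that of WT shoots. SAUR16 (AT4G38860), another light-induced member of cotyledons, read 48.4, 49.6 and 51.8 FPKM in CCA1-ox shoots, against 43.8, 43.9 and 41.8 in WT shoots (0.20, adjusted p = 0.0390). This call was lost without any 1 of the 6 shoot libraries, and with a pseudocount of 0.1 its adjusted p was 0.261. SAUR15 (AT4G38850), a gene long used as a marker of the auxin response, was not called (0.22, adjusted p = 0.0614), its libraries overlapping at 4.95, 4.73 and 3.82 FPKM in CCA1-ox shoots against 3.56, 3.21 and 4.35 in WT shoots. Without CCA1-ox shoot library 3 or WT shoot library 3 it was called.

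Around SAUR1, 4 of 6 genes were lower. SAUR4 (16596640 to 16597368) read 2.83, 1.86 and 1.97 FPKM in CCA1-ox shoots, against 4.81, 4.03 and 4.89 in WT shoots (−0.80, SE 0.10, adjusted p = 1.03e-05). SAUR49, which promotes leaf senescence, read 2.77, 3.72 and 3.05 FPKM in CCA1-ox shoots, against 4.68, 4.62 and 5.56 in WT shoots (−0.51). SAUR3 read 2.68, 3.83 and 2.56 FPKM in CCA1-ox shoots, against 4.43, 5.63 and 3.11 in WT shoots (−0.41, adjusted p = 0.0314). SAUR4 and SAUR49 separated the groups, but SAUR3 overlapped, and its call was lost without library 1 or 3 of CCA1-ox shoots or library 1 or 2 of WT shoots. SAUR50, the most abundant of the block, was lower in each CCA1-ox library (31.8 ± 0.256 FPKM in CCA1-ox shoots and 38.5 ± 0.662 in WT shoots; −0.27). SAUR5 (0.33) and SAUR1 (AT4G34770, 0.32) were higher. SAUR5 stood under 1 FPKM in both groups and missed the threshold with quantile normalization and in a voom fit, and SAUR1 did so with a pseudocount of 0.1 (adjusted p = 0.299).

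On chromosome 2, SAUR6 (AT2G21210, 9084628 to 9086029) read 18.6, 18.8 and 18.2 FPKM in CCA1-ox shoots, against 33.7, 34.0 and 30.4 in WT shoots. The groups lay far apart (−0.79, SE 0.06, adjusted p = 1.38e-07), and this was the deepest fall among members above 10 FPKM. SAUR6 and SAUR7 (AT2G21200) overlap by 176 bases on the same strand, so fragments from there could belong to either. SAUR7 (0.18, adjusted p = 0.138) and SAUR12 (AT2G21220, 0.01, adjusted p = 0.941) were not called.

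Among the 14 dispersed genes 12 were tested in shoots, with 3 higher, 3 lower and 6 not called. SAUR36 (18641563 to 18642739) read 3.72, 4.14 and 4.34 FPKM in CCA1-ox shoots, against 1.09, 1.18 and 0.910 in WT shoots (1.299, SE 0.06, adjusted p = 7.40e-10). SAUR10 (AT2G18010), which auxin and brassinosteroid induce together, read 1.33, 1.27 and 1.27 FPKM in CCA1-ox shoots, against 0.510, 0.398 and 0.314 in WT shoots (0.70). SAUR32 read 32.0, 31.6 and 31.6 FPKM in CCA1-ox shoots, against 23.8, 21.7 and 22.5 in WT shoots (0.47). No library of these 3 genes crossed between groups, though for SAUR10 the filter fixed this.

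The lower dispersed genes were faint. SAUR71 (AT1G56150), a stele-expressed relative of SAUR41, read 1.08, 0.700 and 0.949 FPKM in CCA1-ox shoots, against 1.92, 2.53 and 1.23 in WT shoots (−0.58, adjusted p = 0.00239). SAUR69 (AT5G10990) read 0.0609, 0.150 and 0.170 FPKM in CCA1-ox shoots, against 0.554, 0.650 and 0.468 in WT shoots (−0.47), and with a pseudocount of 5 its adjusted p was 0.0572. SAUR51 (AT1G75580) read 3.68, 4.38 and 4.29 FPKM in CCA1-ox shoots, against 4.14, 5.78 and 6.37 in WT shoots (−0.32, adjusted p = 0.0342). SAUR71 and SAUR69 did not overlap between groups, while SAUR51 did and lost its call without library 1 or 3 of CCA1-ox shoots or library 2 or 3 of WT shoots. SAUR37, SAUR38, SAUR41, SAUR54, SAUR70 and SAUR72 were not called, with changes between −0.17 and 0.09.

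In roots few SAUR genes were called, all of them members with a mean of at least 1 FPKM there. Of the 42 tested, 5 were higher, 3 lower and 34 not called in CCA1-ox roots against WT roots, or 19.05% called, where 36.3% of all genes tested were called, 20.8% higher and 15.4% lower. The 29 with a root mean under 1 FPKM gave no call, where 4.15% of all genes at that level were higher and 12.4% lower. Of the 13 with a mean of at least 1 FPKM, 5 were higher, 3 lower and 5 not called, where 22.6% of all genes at that level were higher and 15.8% lower. All calls lay among the dispersed genes and the block around SAUR1.

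**Figure D4:**
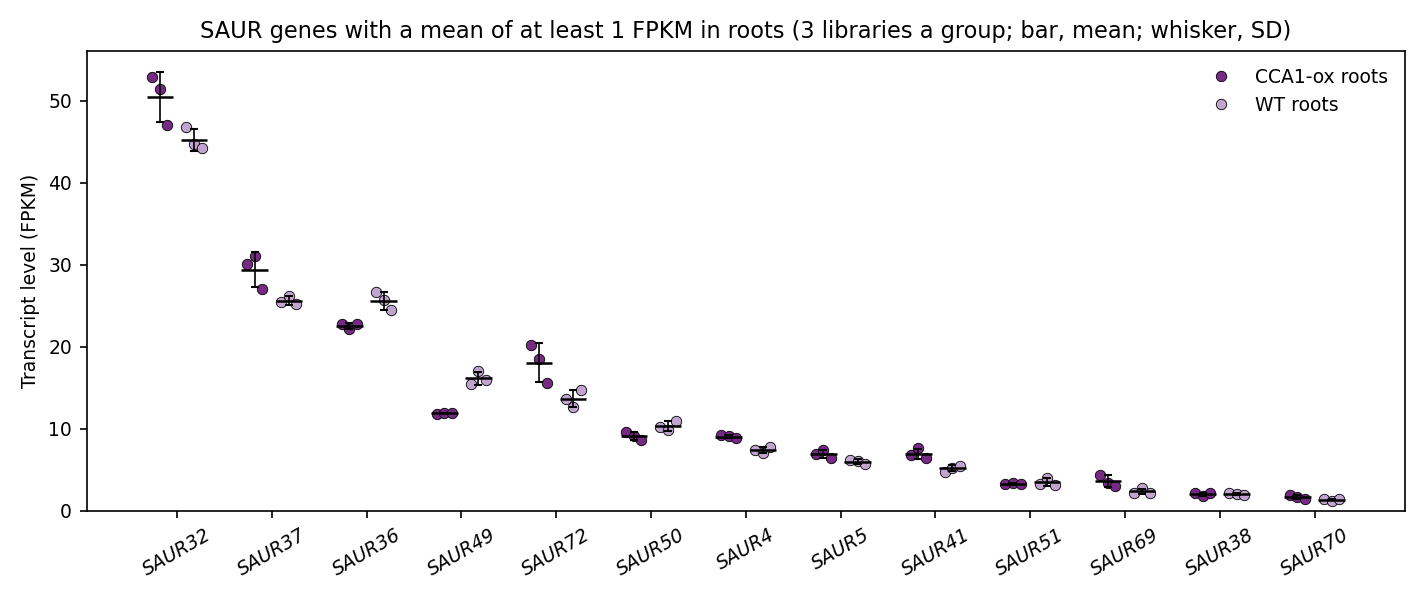
FPKM of the 13 SAUR genes with a root mean of at least 1 FPKM in each CCA1-ox root library and each WT root library (points), with the mean and SD of 3 libraries, in order of the WT mean. SAUR69, SAUR41 and SAUR72 lie higher in CCA1-ox roots and SAUR49 lower, at 11.8 to 11.9 against 15.5 to 17.0.

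SAUR49 fell furthest. It read 11.8, 11.9 and 11.9 FPKM in CCA1-ox roots, against 15.5, 17.0 and 16.0 in WT roots (−0.41, SE 0.08, adjusted p = 0.00119). SAUR50 read 9.58, 9.07 and 8.67 FPKM in CCA1-ox roots, against 10.2, 9.88 and 11.0 in WT roots (−0.17, adjusted p = 0.00789). SAUR36 read 22.8, 22.1 and 22.8 FPKM in CCA1-ox roots, against 26.6, 25.7 and 24.5 in WT roots (−0.17, adjusted p = 0.0384). The groups did not overlap in these 3 genes. SAUR50 lost its root call in a voom fit and with the root groups fitted alone (adjusted p up to 0.0754). SAUR49 and SAUR50 were thus lower in CCA1-ox in both organs, while SAUR36 was higher in shoots and lower in roots. The root call of SAUR36 was lost without any 1 root library other than WT library 3, with adjusted p up to 0.138 over all alternatives.

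SAUR69 read 4.41, 3.41 and 3.06 FPKM in CCA1-ox roots, against 2.19, 2.73 and 2.20 in WT roots (0.45, SE 0.11, adjusted p = 0.00428). SAUR72 (AT3G12830), like SAUR71 a member of the SAUR41 subfamily, read 20.2, 18.5 and 15.6 FPKM in CCA1-ox roots, against 13.7, 12.6 and 14.7 in WT roots (0.37, adjusted p = 0.0288). SAUR41 (AT1G16510), known to promote cell expansion when overexpressed, read 6.81, 7.65 and 6.44 FPKM in CCA1-ox roots, against 4.75, 5.27 and 5.49 in WT roots (0.37, adjusted p = 0.00601). In these 3 genes too each CCA1-ox library stood above each WT library. SAUR37 read 30.1, 31.1 and 27.1 FPKM in CCA1-ox roots, against 25.5, 26.2 and 25.2 in WT roots (0.19, adjusted p = 0.0208). SAUR32 read 52.9, 51.5 and 47.1 FPKM in CCA1-ox roots, against 46.8, 44.7 and 44.2 in WT roots (0.15, adjusted p = 0.0141). SAUR49 and SAUR41 alone of the 8 stayed called under every alternative tried.

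Single libraries decided several of these root calls. Without CCA1-ox root library 1, or without library 2, 2 members were called higher, and without WT root library 1, or without library 3, there were 3. Scaled to the summed fragments 2 were higher and 3 lower. Over all genes that scaling called 38.8% of changes higher and quantile normalization 50.2%, against 57.4% as deposited. SAUR4 read 9.20, 9.06 and 8.84 FPKM in CCA1-ox roots, against 7.35, 7.07 and 7.76 in WT roots (0.26, adjusted p = 0.0533). SAUR5 read 6.92, 7.45 and 6.45 FPKM in CCA1-ox roots, against 6.21, 6.03 and 5.65 in WT roots (0.19, adjusted p = 0.0793). Both missed the threshold although their libraries did not overlap, and SAUR4 passed it in 9 of the alternatives. SAUR38, SAUR51 and SAUR70, the other members above 1 FPKM in roots, overlapped between groups, with changes between −0.05 and 0.17. All 7 endodermis markers were higher in CCA1-ox roots (sums of 516 to 542 FPKM against 362 to 373 in WT roots), and of 6 root hair markers 5 were higher and 1 lower (82.1 to 85.6 against 58.2 to 59.6). The 6 mesophyll markers summed to 4.44 to 5.11 FPKM in CCA1-ox roots against 20.8 to 22.1 in WT roots, with 2 lower and 4 not called, and 1 was at 0 in CCA1-ox roots. Of 6 xylem markers 1 was higher (214 to 216 against 213 to 215), and none of 6 guard cell markers was called, with 3 at 0 in CCA1-ox roots and 2 in WT roots. No endodermis, root hair or xylem marker was at 0, and the part of these lists in the SAUR values was not tested.

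The effect of CCA1 overexpression was also compared between organs. The difference, root effect minus shoot effect, was above 0 for 6 of the 42 and below 0 for 21, where 50.7% of all genes tested were called, 27.2% above and 23.5% below. For a gene with almost no root transcript this difference is close to the shoot change with its sign turned, as it was for the 6 genes of chromosome 5 (−2.08 to −1.09). Of the 27 members called, 22 had a root mean under 1 FPKM, and the other 5 were SAUR4, SAUR32, SAUR36, SAUR41 and SAUR69. In a voom fit on the recovered fragments (weights that follow expected precision), the difference was called for 4 members. These were SAUR36 (−2.12 in that fit, against −1.47 on log2(FPKM + 1)), SAUR4 (1.35 against 1.06), SAUR69 (2.65 against 0.92) and SAUR32 (−0.34 against −0.31). SAUR36 and SAUR69 were called in opposite directions in the 2 organs. SAUR32 was higher in both by unlike amounts, and SAUR4 was lower in shoots and not called in roots. The root calls of SAUR32, SAUR36 and SAUR69, and the shoot call of SAUR69, did not hold in every alternative.

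The CACATG motif was common before SAUR genes. It occurred within 250 bases of the start in 26 of the 45 members, or 57.8%, and in 11.2% of 32721 annotated genes with the same window. By block it was present in 8 of 8 genes on chromosome 1, 4 of 4 on chromosome 3, 3 of 4 around SAUR14, 4 of 6 around SAUR1, 3 of 6 on chromosome 5 and 1 of 3 on chromosome 2, against 3 of 14 dispersed genes. Members of one block share ancestry, so these are not independent counts. In 1000 bases the shares were 75.6% of members and 37.9% of all genes.

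The other motifs were nearer to the shares of all genes. The auxin response element TGTCTC was found before 15.6% of members and 11.0% of all genes, its variant before 4.44% and 4.11%, and the CCA1-binding site before 6.67% and 6.38%. The G-box and the evening element core were in none of the 45 windows of 250 bases, and in 5.90% and 4.55% of all genes. In 1000 bases the classical auxin response element was before 48.9% of members and 39.9% of all genes, its variant before 22.2% and 14.5%, the G-box before 8.89% and 14.1%, the evening element core before 17.8% and 14.7%, and the CCA1-binding site before 17.8% and 20.7%. Of 23 members higher in CCA1-ox shoots 16 held CACATG, of 9 lower 5 did, and of 10 not called 2 did. Over all genes tested the shares were 12.9%, 10.6% and 10.3%. Of the 8 members called in roots none held it, where 12.3% of all genes higher and 11.8% of those lower did. With shares of that size, 8 members are too few to set none apart. Of the 34 not called in roots 23 held it, against 10.55% of all genes not called, and 29 of the 34 averaged under 1 FPKM there. By organ, 19 of 27 members with at least 1 FPKM in shoots alone held CACATG, against 1 of 6 in roots alone and 2 of 7 in both. These splits partly follow the blocks, whose members share ancestry. A link of the motif to the calls or to the organs was not tested.

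**Figure D5:**
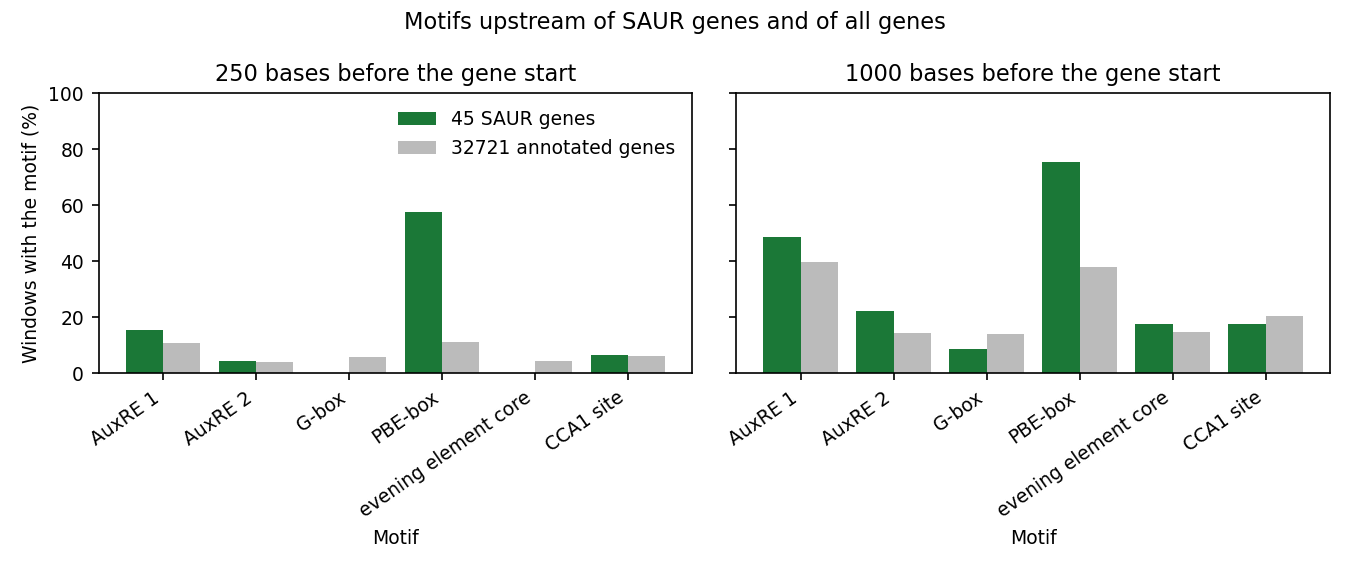
Percentage of windows of 250 and 1000 bases before the gene start that hold each of 6 motifs, for the 45 SAUR genes and for all annotated genes. The PIF-binding E-box (PBE-box), CACATG, stands at 57.8% against 11.2% in the short window; AuxRE 1 is the classical auxin response element and AuxRE 2 its variant.

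Of the 34 further SAUR loci 19 were tested, and they too went both ways in shoots, with 8 higher, 5 lower and 6 not called, where 26.6% of all genes were higher and 28.9% lower. SAUR30 (AT5G53590) read 16.1, 18.5 and 19.4 FPKM in CCA1-ox shoots, against 5.77, 6.71 and 6.81 in WT shoots (1.35). SAUR33 (AT3G61900) read 2.85, 2.19 and 2.02 FPKM in CCA1-ox shoots, against 0.693, 0.333 and 0.103 in WT shoots (1.30). SAUR78 (AT1G72430) read 18.3, 15.8 and 16.2 FPKM in CCA1-ox shoots, against 43.4, 41.5 and 40.1 in WT shoots (−1.27). All 3 separated the shoot groups. In roots SAUR78 was instead higher, at 22.4, 19.6 and 19.8 FPKM in CCA1-ox roots against 11.2, 13.1 and 13.4 in WT roots (0.67), and 4 of the 19 were higher, 3 lower and 12 not called, where 20.8% of all genes were higher and 15.4% lower. Between organs these loci leaned the other way from the 45, with 13 of the 19 higher and 6 lower in WT roots than in WT shoots, and 14 higher and 5 lower in CCA1-ox roots than in CCA1-ox shoots. Of all genes tested, 45.3% were higher and 41.8% lower in WT roots, and 45.2% and 41.5% in CCA1-ox roots. For loci that reached 1 FPKM in 1 organ alone, the filter largely fixed this direction. SAUR31 (AT4G00880) averaged 52.9 ± 1.85 FPKM in CCA1-ox roots and 60.9 ± 2.14 in WT roots, and SAUR55 (AT5G50760) 58.2 ± 2.78 in CCA1-ox roots and 49.1 ± 0.876 in WT roots (SD, n = 3 each). Both means stood above those of SAUR32 in the same roots, and both genes were named after their values were seen. Between the members of the tandem blocks lie 31 other annotated genes. These include SAUR2 (AT4G34780) and SAUR73 (AT3G03847), which also belong to the 34 further SAUR loci and were not tested. Of the 10 tested, 1 was higher, 1 lower and 8 not called in shoots, and 1 was higher, 2 lower and 7 not called in roots.

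Genes that act before and after the SAUR proteins were counted by list, to be read against the 26.6% of all genes called higher and 28.9% lower in CCA1-ox shoots, and 20.8% and 15.4% in CCA1-ox roots. Of 6 auxin receptors (TIR1/AFB), 2 were higher and 1 lower in CCA1-ox shoots, with GRH1 (AFB1) at 0.28 and TIR1 at −0.19. Of 5 activating auxin response factors 3 were higher and 1 lower, ARF19 at 0.67 and MP (ARF5) at 0.29. Among 9 clade D phosphatases, the direct targets of SAUR proteins, 4 were higher, 2 lower and 3 not called, with AT5G66080 at 1.16 and AT5G02760 at 1.11. Of the 11 plasma membrane H+-ATPases 8 were tested, 1 higher (HA4, 0.34), 3 lower (HA3, −0.32) and 4 not called.

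Regulators and other targets of the shade pathway were counted in the same way. All of these lists were chosen with earlier results of these data known, so their counts are a description, not a test. Of 8 PIF, BZR1/BES1 and HY5 genes, 5 were higher and 1 lower in CCA1-ox shoots, with PIF4 at 1.92 and PIL6 (PIF5) at 1.02. All 7 shade and PIF target genes outside the SAUR family were higher, led by HFR1 (3.47) and XTH24 (2.95). In roots the same 7 gave none higher, 3 lower and 4 not called, and the regulators 2 higher, 3 lower and 3 not called, HY5 at −0.70. Auxin receptors were 2 higher and 1 lower in roots, response factors 2 lower (ARF6, −0.30), clade D phosphatases 3 higher (AT5G66080, 0.41) and H+-ATPases 2 higher and 1 lower (HA7, 0.75).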

How the data were processed

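FPKM per gene and library were deposited by the authors for 12 libraries, 3 in each of 4 groups taken from the sample titles. Per the labels' protocols, column-purified, DNase-treated total RNA went into a stranded library kit. Genome build TAIR10 is given per the submitters' processing notes; the sources used here do not give the aligner, counter or strand setting. FPKM times gene length gave whole multiples of 1 step for 100% of values (within 0.1), from which fragments were recovered.

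With all libraries in 1 model, group means of log2(FPKM + 1) were estimated by limma 3.58.1 (R 4.3.3; trended, moderated variances, 8 residual degrees of freedom, two-sided), for 20975 genes at 1 FPKM or more in at least 3 libraries, and members were read out of that fit. Adjusted p-values are Benjamini-Hochberg over all genes tested. On simulated data the fit recovered 24 of 50 changes of 0.25 log2 between CCA1-ox and WT in shoots and 27 of 50 in roots. At 1 log2 it recovered 50 and 48 of 50. Each simulated gene had the same level in every group before the change, so genes near 0 in only one organ were not represented. No replicate pair was identical. Same-numbered libraries did not deviate together (0 of 18 correlations above 0.1). Alternatives were other pseudocounts, filters and scalings, voom on recovered fragments, single comparisons, a replicate block and leaving out each library. Members, lists and motifs were chosen with earlier results of these data known. Named are, per block and comparison, the called members with the largest change (up to 3), every chromosome 5 member, other members by value where not called, and up to 3 (SAUR) or 2 (other lists) called genes. Of the 45 names, 13 come from the deposited table and 32 from RefSeq synonyms. AT5G01830, also named SAUR21 there but annotated as an ARM repeat protein, was left out.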

Additional observations from a re-analysis of the deposited data

Results flagged for a closer look

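The change with CCA1 overexpression differed between roots and shoots, by limma's test of the difference itself, for 27 of the 42 SAUR genes tested. Of all genes tested, 50.7% were called. Values are the root effect minus the shoot effect on the log2(FPKM + 1) scale. On chromosome 5 it was −2.08 for SAUR22, −1.56 for SAUR23, −1.27 for SAUR21, −1.24 for SAUR20, −1.15 for SAUR19 and −1.09 for SAUR24. On chromosome 1 it was −0.545 for SAUR65, −0.462 for SAUR61, −0.441 for SAUR64, −0.386 for SAUR66, −0.335 for SAUR67 and −0.23 for SAUR63. On chromosome 3 it was −0.916 for SAUR28, −0.542 for SAUR26, −0.481 for SAUR27 and −0.446 for SAUR29. All 16 of these genes averaged under 1 FPKM in roots, so the difference is close to the shoot change with its sign turned.

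On chromosome 4 it was −0.724 for SAUR13, −0.332 for SAUR1, 0.439 for SAUR14 and 1.06 for SAUR4, and on chromosome 2 it was 0.733 for SAUR6. Among dispersed genes it was −1.47 for SAUR36, −0.693 for SAUR10, −0.314 for SAUR32, 0.52 for SAUR41, 0.573 for SAUR71 and 0.916 for SAUR69. Of these, SAUR4, SAUR32 and SAUR36 averaged at least 1 FPKM in both organs. SAUR1, SAUR6, SAUR10, SAUR13, SAUR14 and SAUR71 averaged under 1 FPKM in roots. Their difference too is close to the shoot change with its sign turned. SAUR36 and SAUR69 were called in opposite directions in the 2 organs. SAUR36 was higher in CCA1-ox shoots and lower in CCA1-ox roots, and SAUR69 was lower in shoots and higher in roots. Neither root call, nor the shoot call of SAUR69, held in every alternative.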

How the results depend on the processing

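Over 21 alternatives (20 for the difference between organs), 20 of the 32 shoot calls, 2 of the 8 root calls, 4 of the 27 calls of the difference between organs, 41 of the 42 WT organ calls and all 41 CCA1-ox organ calls held wherever the gene was tested. In shoots 5 members were lower with the filter at 5 FPKM, which left 29 members tested. In roots 2 were higher with a pseudocount of 0.1, 2 scaled to the summed fragments, and 2 to 6 without 1 library at a time. For the difference between organs, voom on recovered fragments called 2 above and 2 below 0, and there SAUR63 (0.26) and SAUR66 (0.13) reversed their sign without being called. The causes were not tested. With a replicate block the calls were 23 higher and 9 lower in shoots, 7 and 2 in roots, 6 and 20 for the difference, and 11 and 31 for each organ comparison; the libraries share only a number. SAUR36 lost its root call under the block, and the block changed the root count of higher calls from 5 to 7. Genes near 0 in an organ are limited by depth, and leaving out a library assumes that the remaining pair varies like the other groups.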
